A study of Mus musculus with 6 samples.

Results

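The enzymes that carry glucose through glycolysis, through pyruvate and into the pentose phosphate pathway were followed in thymic NKT1 cells, as 34 genes chosen by symbol out of 47643 in the deposited table. They are 19 genes of the enzymes from hexokinase to lactate dehydrogenase, the 4 enzymes that set fructose 2,6-bisphosphate, 3 subunits and 3 kinases of the pyruvate dehydrogenase complex, 4 enzymes of the pentose phosphate pathway and the hypoxia factor Hif1a. NKT1 cells are the T-bet-expressing subset of invariant natural killer T (iNKT) cells, T cells that recognise lipids on CD1d. All 6 libraries, made with a stranded mRNA kit, are of thymic cells of wild-type BALB/c mice, sorted by flow cytometry, 3 of CD4-positive and 3 of CD4-negative NKT1 cells. The 2 groups share tissue, strain and genotype, no treatment is given, and the sources used here give no age, sex or number of animals behind a library. Whether the replicates are different animals is not stated, so p-values measure only the spread between these libraries, which may be technical.

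Glycolysis splits glucose into pyruvate. Hexokinase and phosphofructokinase are its early kinases, which spend ATP, and phosphoglycerate kinase and pyruvate kinase are the steps that earn ATP. Lactate dehydrogenase then makes lactate, while the pyruvate dehydrogenase complex, which its kinases switch off, commits pyruvate to oxidation inside mitochondria. The pentose phosphate pathway leaves glycolysis at glucose 6-phosphate and yields NADPH and ribose. T cells are known to raise glycolysis upon activation, with Hif1a and Myc as regulators of the genes, and resting T cells lean more on mitochondrial respiration.

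The libraries held 40480463 to 53145848 estimated counts, of which these 34 genes took 0.597% to 0.796%. Levels are given as CPM, a gene's count relative to its library's TMM-scaled total, so a gene's level in it is comparable between libraries but not between genes of different length. Cd4, the sort marker, stood at 508, 401 and 450 CPM in CD4-positive replicates 1, 2 and 3 and at 16.0, 10.9 and 41.2 CPM in the CD4-negative ones. The interleukin 2 receptor beta chain Il2rb (1784 ± 498 against 1563 ± 257 CPM, mean ± SD, n = 3 in each group) and Cd3g of the T cell receptor complex (1194 ± 300 against 1313 ± 567 CPM) were high in both groups. CD4-negative replicate 3 stood apart on the first principal component (score -90.2, the others -2.31 to 32.2) and had counts for 13787 genes against 15293 to 16267 elsewhere. Mitochondrially encoded transcripts took 1.35% of the counts in CD4-positive replicate 1 and 1.33% in CD4-negative replicate 3, against 3.51% to 5.19% in the other 4 libraries. Replicates 1 and 2 of each group carry library names of a different scheme from replicate 3. Of the marker lists of other cells, myeloid genes summed to 90.4 to 138 against 96.6 to 174 CPM (nearly all Cst3, 118 ± 25.4 against 121 ± 44.8 CPM, then Cd68 at 0.462 ± 0.223 against 0.81 ± 0.279, with Elane, S100a8 and S100a9 at 0), erythroid genes to 276 to 367 against 283 to 701 CPM (led by Hbb-bs and Hba-a2) and immature thymocyte genes to 18.8 to 107 against 21.3 to 141 CPM (led by Cd8b1 and Rag1). Regulatory T cell genes summed to 143 to 167 against 115 to 153 CPM (led by Tnfrsf18 and Il2ra). Which cells made these transcripts cannot be told from bulk libraries. The NKT1 and T cell list summed to 4810 to 5580 against 4758 to 5948 CPM. By edgeR's quasi-likelihood test both lists held 1 gene at an unadjusted p under 0.05, higher in CD4-positive cells with groups that did not overlap. Il2ra stood at 28.2, 40.5 and 43.8 against 24.4, 23.6 and 15.5 CPM (adjusted p = 0.604). Zbtb16, named after its values were seen, stood at 151, 98.1 and 70.1 against 60.0, 63.6 and 62.0 CPM (adjusted p = 0.804).

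The enzymes were present at the same order of magnitude in both subsets, and none passed the test. Of the 34 genes 32 had enough counts to be tested, and by edgeR's quasi-likelihood test 0 differed at an adjusted p under 0.05, where 0.212% of all 12760 tested genes did. At an unadjusted p under 0.05 there was 1, Pfkfb4, against 4.44% of all tested genes. DESeq2 on the same genes called the same 1 of the 32 (1.48% of all tested genes), and limma-voom and DESeq2 without a filter on low counts called 0. On simulated data, in which no library stood apart, 52 of 218 calls by DESeq2 and 10 of 150 by edgeR were false. These data were drawn with dispersions estimated by edgeR, so the rates may favour edgeR and do not judge a single call. The groups did not overlap for 3 genes, Pfkfb4, Pfkp and Hif1a, all higher in CD4-positive cells, where 9.41% of all tested genes did not overlap in either direction and 4.84% were higher in this way. A log2 difference (CD4-positive minus CD4-negative) above 0 was found for 19 of the 32, against 48.9% of all tested genes. The median difference was 0.05, against -0.01 over all tested genes. The direction of that median rested on single libraries: it was -0.05 without CD4-negative replicate 2, -0.02 without either CD4-positive replicate 1 or CD4-negative replicate 1, and 0.18 without CD4-negative replicate 3. In bulk samples like these, fewer cells of a kind and less RNA per cell cannot be told apart.

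A missed test does not show equal levels, so the intervals matter. The 95% interval of the difference lay inside a 2-fold change both ways for 26 of the 32 genes, against 65.1% of all tested genes. The other 6 were Hk2, Ldhb, Aldoc, Pfkfb1, Pfkfb2 and Pfkfb4, which stood under 15 CPM in the mean of both groups. Among the narrowest intervals were those of Pfkp (-0.15 to 0.54), G6pdx (-0.42 to 0.28) and Hk1 (-0.20 to 0.50).

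**Figure D1:**
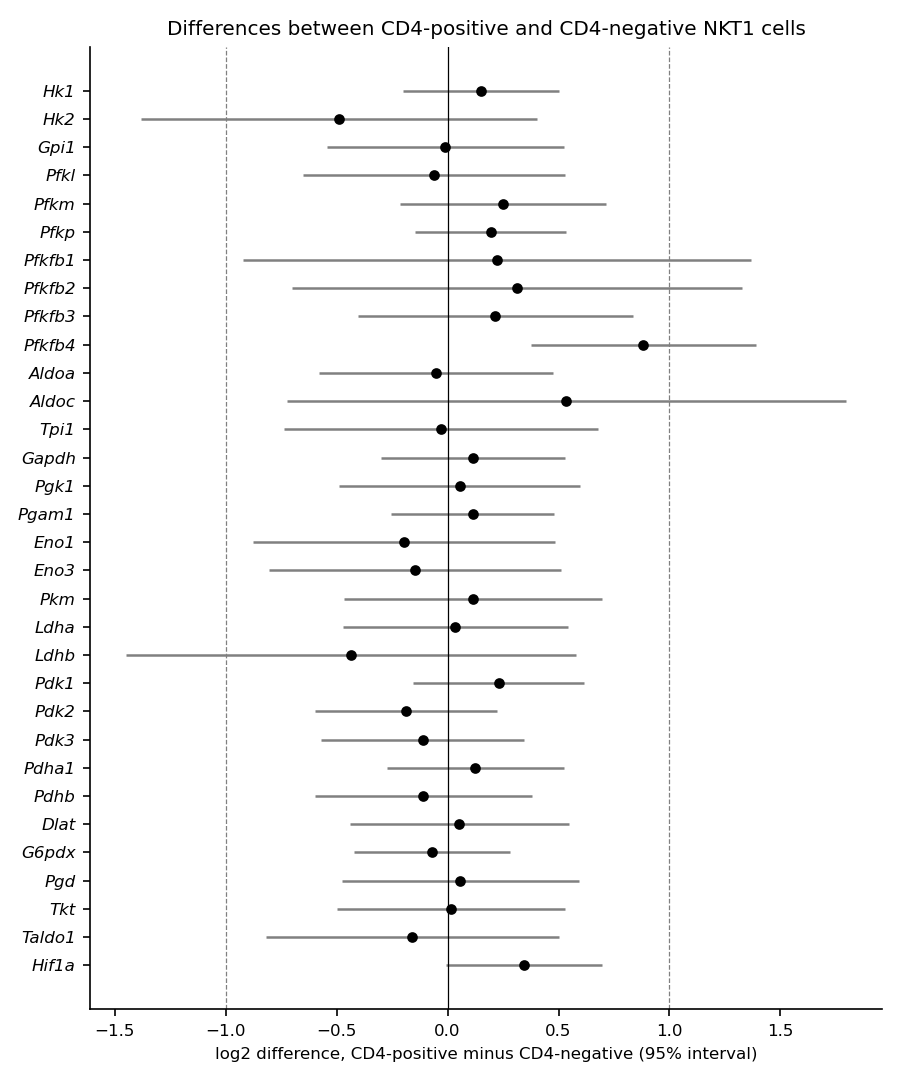
Log2 difference between CD4-positive and CD4-negative NKT1 cells (x axis) for each of the 32 tested genes (y axis, in pathway order); points are edgeR estimates from 3 libraries a group, bars their 95% intervals, and dashed lines mark a 2-fold change. The bar of Pfkfb4 (0.37 to 1.39) is the only one that does not cross 0.

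The summed levels of the pathway differed more between libraries of 1 group than between the group means. For 18 of the 32 genes the highest 2 values were those of CD4-positive replicate 1 and CD4-negative replicate 3, a pattern noticed after the values were seen and shown by 2724 of the 12760 tested genes (21.3%). These 18 were Hk2, Gpi1, Pfkl, Pfkfb1, Aldoa, Tpi1, Gapdh, Pgk1, Eno1, Eno3, Pkm, Ldha, Pdk3, Pdha1, Pdhb, Pgd, Tkt and Taldo1. The 19 genes from hexokinase to lactate dehydrogenase summed to 6598, 4964 and 5647 CPM in CD4-positive replicates 1, 2 and 3 and to 5012, 4818 and 7019 CPM in CD4-negative replicates 1, 2 and 3. The group means were 5736 ± 821 and 5616 ± 1219 CPM, a ratio of 1.02. The 4 pentose phosphate enzymes summed to 830, 595 and 651 against 616, 601 and 896 CPM, and the 3 subunits of the pyruvate dehydrogenase complex to 317, 268 and 267 against 266, 247 and 311 CPM. The 2 high libraries, of opposite groups and of different naming schemes, are the ones with the lowest shares of mitochondrial transcripts.

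Not all genes followed that order. Pfkfb3, Pfkfb2, Pfkfb4, Aldoc, Pgam1, Dlat and Hif1a had their lowest value in CD4-negative replicate 3. Txnip, which encodes an inhibitor of glucose uptake and is no enzyme of the pathway, stood at 337, 842 and 568 CPM in CD4-positive and 818, 1068 and 386 CPM in CD4-negative replicates, lowest in the 2 libraries where those 18 genes were highest. The part of the share of mitochondrial transcripts in this was not tested. With both libraries left out, 0 of 32 genes passed, and 66 of all tested genes did.

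**Figure D2:**
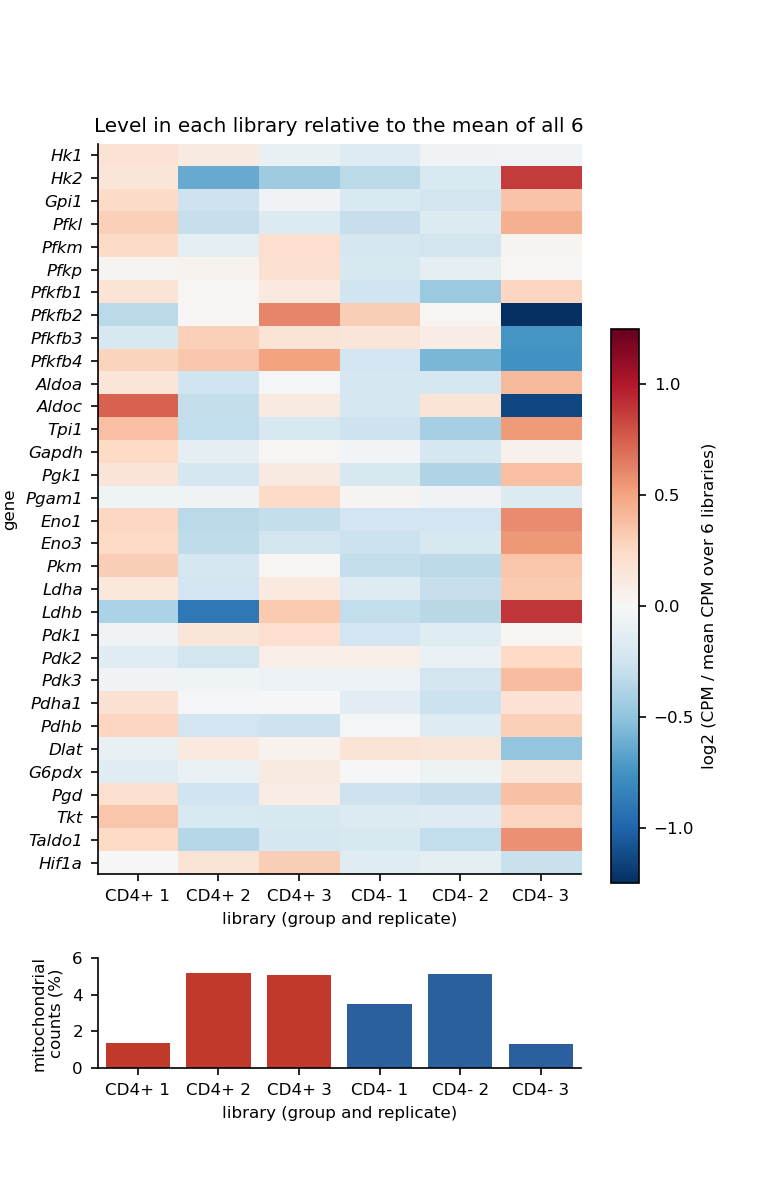
Upper panel: level of the 32 tested genes (rows) in each library (columns), as log2 of CPM over the mean of all 6 libraries, red above and blue below that mean; lower panel: share of mitochondrial counts in percent, red bars CD4-positive and blue bars CD4-negative. CD4-positive replicate 1 and CD4-negative replicate 3 are mostly red above and have the lowest bars (1.35% and 1.33%).

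Hexokinase, which traps glucose in the cell as glucose 6-phosphate, was almost entirely Hk1. Hk1 stood at 329, 314 and 272 CPM in CD4-positive and 259, 281 and 283 CPM in CD4-negative replicates 1, 2 and 3. The highest values were 2 CD4-positive ones, and the groups overlapped (log2 difference 0.15, SE 0.15). Hk2, the isoform known to be induced in activated T cells, stood at 8.39, 4.86 and 5.53 against 5.96, 6.60 and 13.8 CPM. Its highest value was CD4-negative replicate 3, and without that library the difference went from -0.49 to -0.0016. Counted per kilobase of annotated exon, Hk1 held 97.1% ± 0.62 of hexokinase transcripts in CD4-positive and 95.7% ± 1.90 in CD4-negative libraries (exact 2-sided permutation p = 0.3, adjusted p = 0.525 over the 7 enzymes compared). With 3 libraries against 3 this test cannot give a p below 0.1. Hk3, the hexokinase of myeloid cells, had 1, 9 and 5 counts in CD4-positive and 1, 3 and 0 counts in CD4-negative libraries and was not tested. A count of 0 in that library allows up to 3 counts, or 0.0741 CPM, by counting error only.

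Gpi1, which turns glucose 6-phosphate into fructose 6-phosphate, stood at 752, 530 and 618 against 556, 543 and 815 CPM, with a difference of -0.01 (SE 0.23). Phosphofructokinase, the committed step of glycolysis, was shared by Pfkp and Pfkl. Pfkp, the platelet-type subunit, stood at 197, 199 and 222 CPM in CD4-positive and 168, 177 and 195 CPM in CD4-negative replicates. Each CD4-positive value lay above every CD4-negative one, by a small margin (log2 difference 0.19, SE 0.15, adjusted p = 1.0). Pfkl, the liver-type subunit, stood at 141, 94.1 and 102 against 94.2, 102 and 156 CPM and Pfkm, the muscle type, at 9.13, 7.15 and 8.98 against 6.69, 6.60 and 7.96 CPM. Which of the 2 main subunits led depended on the length used and on the library. Per kilobase of all annotated exons Pfkl held a mean of 48.1% ± 5.85 and 52.5% ± 4.84 (exact permutation p = 0.4). Pfkp held 44.6% ± 5.67 and 41.1% ± 4.35. By this measure Pfkp led in CD4-positive replicates 2 and 3 (47.7% and 48.0%, with Pfkl at 45.4% and 44.2%). Pfkl led in CD4-positive replicate 1 (54.8%, with Pfkp at 38.1%) and in each CD4-negative library. Per kilobase of the principal transcript Pfkp led with 60.3% and 56.6%. Pfkm held 7.25% and 6.46% per kilobase of exon.

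The bifunctional enzymes PFKFB1 to PFKFB4 make and break fructose 2,6-bisphosphate, the strongest activator of phosphofructokinase. They held the largest fitted difference among the 32 tested genes. Pfkfb4 stood at 7.67, 8.02 and 8.98 CPM in CD4-positive and at 5.36, 4.27 and 3.76 CPM in CD4-negative replicates 1, 2 and 3. No value of one group reached the other. The means were 8.22 ± 0.68 and 4.46 ± 0.82 CPM, a 1.84-fold difference (95% interval 1.30 to 2.62; log2 0.88, SE 0.22). Its unadjusted p of 0.00419 ranked 151 among 12760 genes, and its adjusted p was 0.352 by edgeR, 0.328 by limma-voom, 0.0873 by DESeq2 on all genes with a count and 0.0234 by DESeq2 on the filtered genes. Leaving out a library at a time gave differences of 0.78 to 1.04. Replicates 1 and 2 alone gave 0.71 (adjusted p = 0.598), and the naming scheme as a batch term 0.89 (adjusted p = 0.390). Replicate 3 alone has 1 library a group and gives no test. The gene lies on chromosome 9, 108991778 to 109032228 on the plus strand (GRCm38, the assembly of mm10).

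Pfkfb3, the form with the highest kinase activity and the main one here, did not follow Pfkfb4. It stood at 50.1, 70.8 and 64.8 CPM in CD4-positive and 64.2, 61.3 and 34.5 CPM in CD4-negative replicates. Its groups overlapped, and the lowest value was CD4-negative replicate 3 (log2 difference 0.22, SE 0.26). Pfkfb2, the heart form, stood at 3.68, 4.70 and 7.11 against 5.76, 4.74 and 1.96 CPM, and Pfkfb1, the liver form, between 0.426 and 0.704 CPM in all libraries. Per kilobase of exon Pfkfb3 held 76.1% ± 2.82 of the 4 transcripts in CD4-positive and 81.0% ± 2.13 in CD4-negative libraries (exact permutation p = 0.2, adjusted p = 0.525 over the 7 enzymes). Pfkfb4 held 17.7%, 13.9% and 15.9% against 10.5%, 9.0% and 13.3%. Within a library there were 15.3, 11.3 and 13.9 Pfkfb4 counts per 100 Pfkfb3 counts in CD4-positive and 8.35, 6.97 and 10.9 in CD4-negative replicates. This ratio needs neither scaling nor length, and its groups did not overlap (exact 2-sided permutation p = 0.1, the smallest possible). It was picked after the values of Pfkfb4 were seen, and over the 6 such ratios computed its adjusted p was 0.3.

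Values of 4 marker lists are set beside Pfkfb4, and their part in it was not tested. By edgeR 0 of their genes passed at an adjusted p under 0.05, and at an unadjusted p under 0.05 there were 4 NK and innate lymphoid genes, 1 B cell gene, 1 stroma gene and 2 cell cycle genes. DESeq2 called Gzma, Ncr1, Eomes, Cd79b and Pecam1, and limma-voom called Gzma and Ncr1. The 12 cell cycle genes all lay above 0 (median log2 0.39; Pcna 220 ± 12.1 against 208 ± 8.43 CPM, Mcm5 155 ± 4.19 against 121 ± 4.41 CPM) and summed to 549 to 707 CPM in CD4-positive and 456 to 555 CPM in CD4-negative libraries, which overlap. Markers of NK cells and innate lymphoid cells summed to 207 to 284 against 935 to 2128 CPM, mostly Gzma (163 ± 47.5 against 1242 ± 621 CPM) and Ncr1 (28.6 ± 6.86 against 84.2 ± 9.08 CPM), and all 6 tested but 1 lay below 0. Stroma markers summed to 33.2 to 37.1 against 19.3 to 21.3 CPM, nearly all of it Pecam1 (31.9 ± 1.66 against 16.1 ± 0.75 CPM), while Epcam stood at 1.65 ± 0.31 against 1.96 ± 0.17 CPM. B cell markers summed to 0.347 to 1.09 against 2.11 to 2.58 CPM with Pax5 at 0 in every library. Their leading genes were Cd79b (0.595 ± 0.243 against 2.26 ± 0.217 CPM) and Cd79a (0.1 ± 0.083 against 0.038 ± 0.0484 CPM). Whether NKT1 cells or other cells made the transcripts of these lists cannot be told from bulk libraries.

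**Figure D3:**
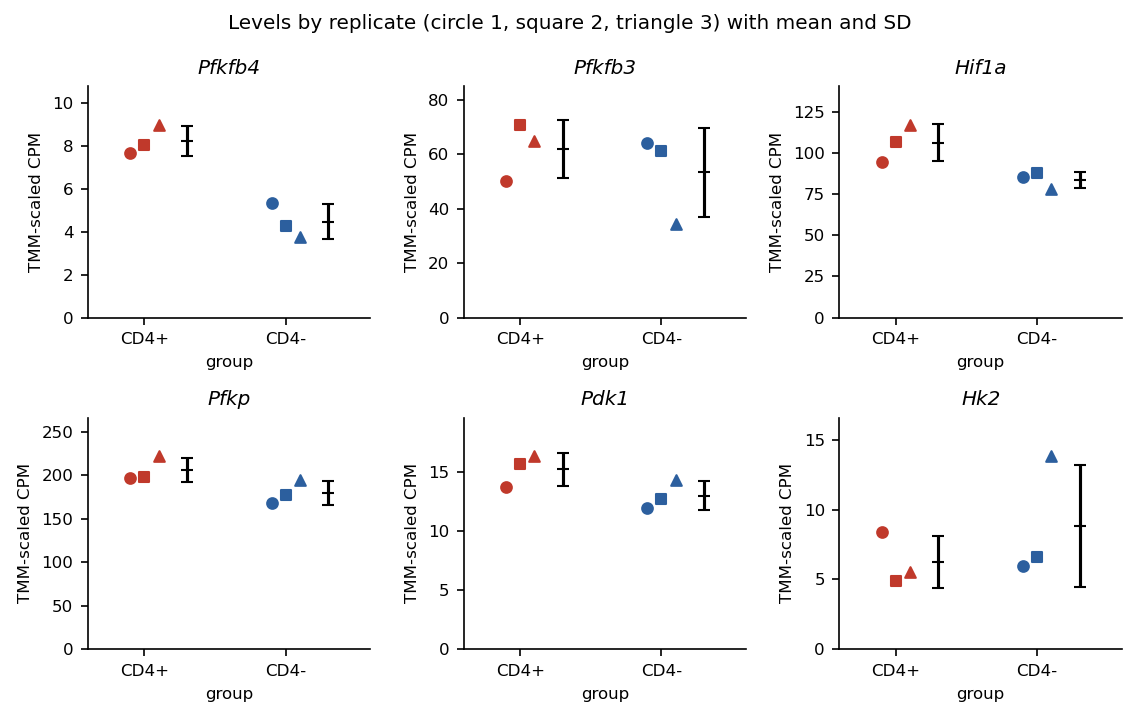
TMM-scaled CPM (y axes, from 0) of 6 genes in CD4-positive (red) and CD4-negative (blue) libraries; circles, squares and triangles are replicates 1, 2 and 3, and the black bars give mean and SD. The groups are apart for Pfkfb4, Hif1a and Pfkp and overlap for Pfkfb3, Pdk1 and Hk2, with CD4-negative replicate 3 lowest for Pfkfb3 (34.5 CPM) and highest for Hk2 (13.8 CPM).

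Promoter letters of isoforms of the same step are shown for Pfkfb4 and Pfkfb3, whose ratio did not overlap between the groups, and for Ldha and Ldhb, whose levels are very unequal in both groups. Each is taken from the 250 bases before a RefSeq start (GRCm38.p6), less any bases that GENCODE annotates as untranslated region, 5′ to 3′ on the gene's strand, and capitals mark the letters ACGTG or GCGTG on either strand, the core bound by hypoxia factors. The E-box CACGTG, which Myc-type factors bind, holds ACGTG on both strands and so counts as 2 of these matches. Where a gene has several starts the window with the most matches is shown.
Pfkfb4, chr9:108991652-108991777, plus strand: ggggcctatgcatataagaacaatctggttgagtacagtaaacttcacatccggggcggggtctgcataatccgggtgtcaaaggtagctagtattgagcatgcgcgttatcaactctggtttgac
Pfkfb3, chr2:11502102-11502340, minus strand: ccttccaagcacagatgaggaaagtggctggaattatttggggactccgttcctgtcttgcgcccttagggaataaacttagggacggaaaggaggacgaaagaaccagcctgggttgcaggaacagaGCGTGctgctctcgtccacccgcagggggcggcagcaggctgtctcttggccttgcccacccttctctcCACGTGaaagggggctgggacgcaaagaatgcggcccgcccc
Ldha, chr7:46845554-46845803, plus strand: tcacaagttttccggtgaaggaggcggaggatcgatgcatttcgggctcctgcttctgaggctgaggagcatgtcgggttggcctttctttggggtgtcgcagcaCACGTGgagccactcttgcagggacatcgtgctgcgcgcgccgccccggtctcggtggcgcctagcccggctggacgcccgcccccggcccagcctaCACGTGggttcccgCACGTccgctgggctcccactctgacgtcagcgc
Ldhb, chr6:142507958-142508207, minus strand: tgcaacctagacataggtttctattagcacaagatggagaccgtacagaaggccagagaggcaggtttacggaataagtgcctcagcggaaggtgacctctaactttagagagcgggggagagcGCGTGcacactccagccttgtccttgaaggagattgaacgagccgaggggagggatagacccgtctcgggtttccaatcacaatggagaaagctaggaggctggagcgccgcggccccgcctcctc
The 126 bases of Pfkfb4 hold no match, and its whole window, part of which is not printed, holds 1. The 239 bases of Pfkfb3 hold 3 matches, 2 of them from 1 E-box, and are from 1 of 2 windows of that gene. The Ldha window holds 5 matches, 4 of them from 2 E-boxes, and is 1 of 2 windows of that gene. The Ldha window not shown holds 1 match, as does the only window of Ldhb. All 34 genes had a window, and 30 held at least 1 match, as did 41.5% of 27025 genes with a window and 62.3% of the 9038 tested genes among them. Over single windows the shares were 74.1% of 54, 38.6% of 32851 and 56.4% of 11516. The median GC content was 59.4%, 52.4% and 59.6%. A match is a description of the letters and not a site of binding.

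Aldolase cleaves fructose 1,6-bisphosphate, and 99.9% of its transcripts per kilobase were Aldoa in both groups (exact permutation p = 0.5). Aldoa stood at 701, 532 and 625 CPM in CD4-positive and 547, 546 and 837 CPM in CD4-negative replicates, highest in CD4-negative replicate 3 (log2 difference -0.05, SE 0.23). Aldoc, the brain form, was between 0.365 and 1.34 CPM. Tpi1, which interconverts the triose phosphates, stood at 293, 183 and 197 against 189, 171 and 327 CPM, and its difference of -0.03 (SE 0.30) ranged from -0.27 to 0.32 when a library was left out.

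Gapdh, which oxidises glyceraldehyde 3-phosphate and is often used as a reference gene, stood at 1095, 846 and 925 CPM in CD4-positive and 895, 795 and 955 CPM in CD4-negative replicates. Its values spanned 1.38-fold over the 6 libraries (log2 difference 0.12, SE 0.18). Pgk1, the first ATP-yielding step, stood at 327, 253 and 317 against 256, 227 and 381 CPM. Pgam1, which shifts the phosphate of phosphoglycerate, stood at 235, 238 and 289 against 250, 237 and 218 CPM and was the steadiest of the abundant lower-pathway enzymes at 1.33-fold from lowest to highest. Eno1, the common enolase, stood at 733, 484 and 497 against 521, 518 and 926 CPM, a 1.91-fold span over the 6 libraries (log2 difference -0.20, SE 0.29).

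Eno3, the muscle enolase, had the same library order as Eno1 at its 2 highest values (12.9, 8.75 and 9.29 against 9.03, 9.49 and 15.8 CPM). The share of Eno1 was 94.7% ± 0.173 in CD4-positive and 94.8% ± 0.181 in CD4-negative libraries per kilobase (exact permutation p = 0.3). Eno3 counts per 100 Eno1 counts lay between 1.71 and 1.87 in all libraries, a narrower span than the 1.91-fold of Eno1 itself. Eno2, the neuronal form, had 8, 2 and 19 against 5, 1 and 0 counts and was not tested. Pkm, pyruvate kinase of the M type, stood at 1134, 787 and 930 against 742, 729 and 1163 CPM (log2 difference 0.11, SE 0.25). Its splice forms M1 and M2 are counted together in the table and were not analysed here.

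Compared per kilobase of annotated exon, levels were higher at the lower steps of glycolysis than at its early kinases. Means in CD4-positive and CD4-negative cells were 35.7 and 32.2 CPM per kilobase for Hk1, 16.8 and 17.6 for Pfkl, 213 and 221 for Aldoa, 231 and 213 for Gapdh, 190 and 176 for Pkm, and 172 and 168 for Ldha. Gapdh and Aldoa were in the opposite order in the 2 groups. Per kilobase of the principal transcript Gapdh led in both groups (673 and 621 CPM per kilobase) and Hk1 reached 79.2 and 71.3.

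**Figure D4:**
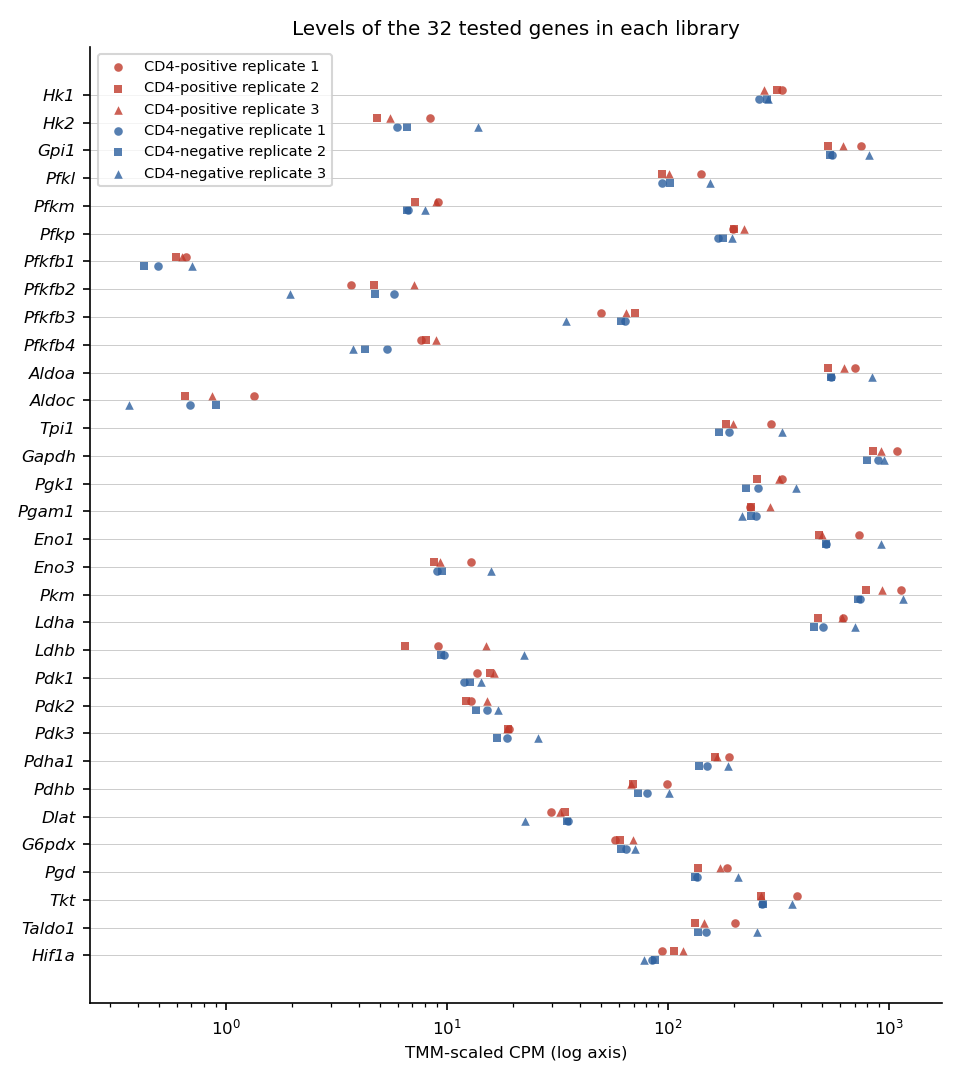
TMM-scaled CPM (x axis, log scale) of the 32 tested genes (y axis, in pathway order) in each library, red for CD4-positive and blue for CD4-negative, with a marker per replicate. Red and blue points overlap in all rows but Pfkp, Pfkfb4 and Hif1a, and for most abundant enzymes the rightmost points are CD4-positive replicate 1 and CD4-negative replicate 3.

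Lactate dehydrogenase is a tetramer of A and B subunits, of which the A form favours lactate. Ldha stood at 618, 476 and 613 CPM in CD4-positive and 502, 460 and 704 CPM in CD4-negative replicates (log2 difference 0.04, SE 0.22). Ldhb stood at 9.11, 6.46 and 15.0 against 9.72, 9.44 and 22.3 CPM, and was highest in replicate 3 of both groups. Immature thymocyte genes summed to 50.1, 18.8 and 107 against 56.9, 21.3 and 141 CPM, also highest in replicate 3 of both. Their part in the levels of Ldhb was not tested. Per 100 Ldha counts there were 1.47, 1.36 and 2.45 Ldhb counts in CD4-positive and 1.94, 2.05 and 3.16 in CD4-negative replicates. The share of Ldha per kilobase was 96.4% ± 1.17 and 95.2% ± 1.29 (exact permutation p = 0.3, adjusted p = 0.525 over the 7 enzymes).

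Oxidation of pyruvate in mitochondria starts with the pyruvate dehydrogenase complex. Pdha1, its E1 alpha subunit, stood at 189, 164 and 166 against 150, 138 and 188 CPM (log2 difference 0.12, SE 0.17), and Pdhb, the E1 beta subunit, at 98.8, 69.4 and 68.2 against 80.7, 73.4 and 101 CPM (-0.11, SE 0.21). Dlat, the E2 subunit, stood at 29.7, 34.4 and 32.6 against 35.6, 35.1 and 22.5 CPM, and here CD4-negative replicate 3 was the lowest library. The kinases that switch the complex off were low and mixed. Pdk3 led per kilobase with 54.4% ± 2.58 and 54.8% ± 2.97 of the 3 transcripts (exact permutation p = 1.0).

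Pdk1, a known target of Hif1a, stood at 13.7, 15.7 and 16.3 CPM in CD4-positive and 12.0, 12.7 and 14.3 CPM in CD4-negative replicates, overlapping only between the lowest CD4-positive and the highest CD4-negative value (log2 difference 0.23, SE 0.17). Pdk2 lay the other way, at 12.9, 12.2 and 15.2 against 15.2, 13.6 and 17.1 CPM (-0.19, SE 0.18). Within a library there were 106, 128 and 108 Pdk1 counts per 100 Pdk2 counts in CD4-positive and 78.9, 93.5 and 83.9 in CD4-negative replicates. The groups of this ratio did not overlap (exact 2-sided permutation p = 0.1, the smallest possible); it was chosen after the values were seen and is 1 of the same 6 ratios, for which the adjusted p was 0.3. Pdk3 stood at 19.1, 18.9 and 18.7 against 18.7, 16.8 and 25.8 CPM.

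**Figure D5:**
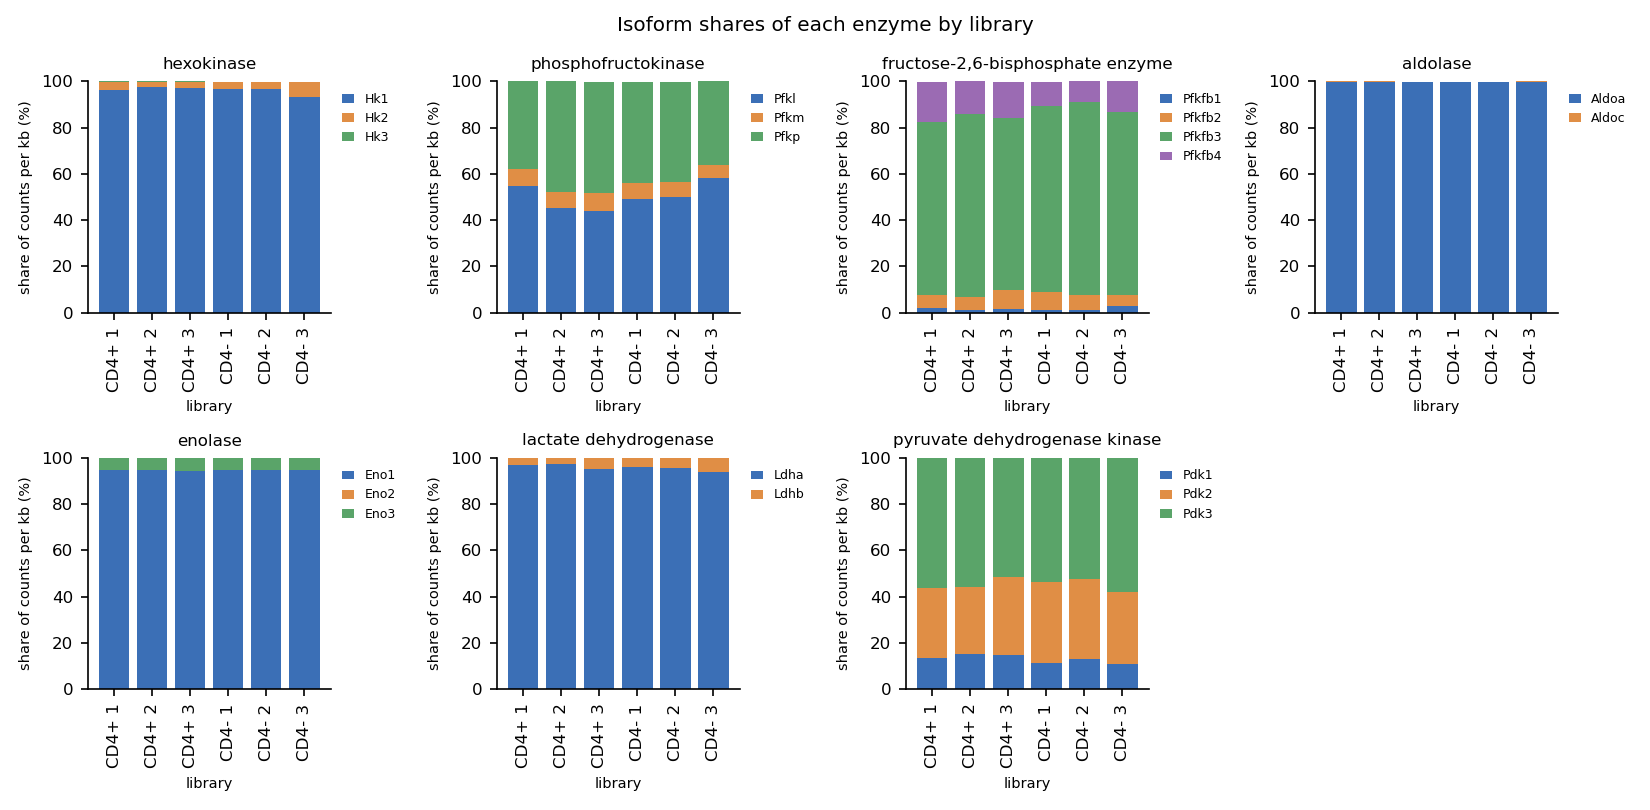
Share of each isoform (stacked colours) in the summed counts per kilobase of annotated exon of its enzyme, in percent (y axis, from 0), for each library (x axis) and each of the 7 enzymes with several isoforms. Hk1, Aldoa, Eno1 and Ldha lead in every library, with 93.5% as the lowest such share, Pfkl and Pfkp are near each other, and the uppermost segment of the fructose-2,6-bisphosphate enzymes, Pfkfb4, is larger in the CD4-positive libraries (13.9% to 17.7%) than in the CD4-negative ones (9.0% to 13.3%).

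In the pentose phosphate pathway G6pdx, the gate of the NADPH-yielding branch, had the narrowest spread of the 32 tested genes at 1.23-fold over the libraries. It stood at 57.9, 60.8 and 69.6 CPM in CD4-positive and 64.7, 61.6 and 71.3 CPM in CD4-negative replicates (log2 difference -0.07, SE 0.15). Pgd, the next oxidative enzyme, stood at 186, 137 and 172 against 135, 133 and 208 CPM. Tkt and Taldo1, transketolase and transaldolase of the branch that links back to glycolysis, stood at 383, 265 and 263 against 268, 270 and 364 CPM and at 202, 133 and 146 against 148, 137 and 253 CPM. Both were highest in CD4-positive replicate 1 and CD4-negative replicate 3, and their differences were 0.02 (SE 0.22) and -0.16 (SE 0.28). Taldo1 spanned 1.90-fold over the libraries.

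Hif1a, the oxygen-regulated factor that drives many of these genes, stood at 94.6, 107 and 117 CPM in CD4-positive and 85.2, 87.5 and 78.1 CPM in CD4-negative replicates. The groups did not overlap (log2 difference 0.35, SE 0.15), with an unadjusted p of 0.0525 and an adjusted p of 1.0. Replicates 1 and 2 alone gave a difference of 0.23, and the naming scheme as a batch term 0.34. Hif1a is controlled largely as a protein, which was not measured. Of 20 further partners, regulators and targets of hypoxia factors 18 were tested and 0 passed, with 11 above 0 and a median of 0.01. Their most abundant members were Bnip3l, a mitophagy receptor (142 ± 4.14 against 142 ± 5.69 CPM), and Egln1, the oxygen-sensing hydroxylase (115 ± 6.49 against 115 ± 9.99 CPM). At an unadjusted p under 0.05 there was 1 of the 18, Ndrg1, named after its values were seen, at 13.5, 15.7 and 17.8 against 10.6, 10.6 and 10.4 CPM (adjusted p = 0.585).

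The other genes of glucose use gave 0 calls by edgeR, limma-voom and DESeq2, with and without the filter. Among transporters of glucose, lactate and pyruvate 8 of 10 were tested, 0 passed and 3 lay above 0 (median -0.06), with 0 at an unadjusted p under 0.05. Bsg, the chaperone of lactate carriers, stood at 161 ± 31.4 against 182 ± 54.1 CPM and the glucose transporter Slc2a3 at 128 ± 28.4 against 107 ± 3.83 CPM. Of 30 further enzymes of glycolysis, gluconeogenesis and pyruvate 18 were tested, 0 passed, also unadjusted, and 12 lay above 0 (median 0.04). Dld, the E3 subunit of the pyruvate dehydrogenase complex, stood at 87.2 ± 7.99 against 84.6 ± 7.39 CPM and the phosphoglucomutase Pgm2 at 52.2 ± 9.30 against 53.7 ± 14.3 CPM. The gluconeogenic genes Fbp1, Fbp2 and Pck1, the liver form Pklr, the testis forms Pgk2 and Ldhc, and Hkdc1 were at 0 in every library.

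Of 10 further pentose phosphate and ribose enzymes 9 were tested, 0 passed, also unadjusted, and 4 lay above 0 (median -0.03). Prps2, which makes phosphoribosyl pyrophosphate, stood at 160 ± 17.8 against 158 ± 14.8 CPM and the ribose-5-phosphate isomerase Rpia at 80.3 ± 15.5 against 81.9 ± 17.2 CPM. Of 20 further regulators of glucose use 17 were tested, 0 passed and 7 lay above 0 (median -0.02). Their most abundant members were Txnip (582 ± 253 against 757 ± 345 CPM) and the kinase Akt2 (213 ± 18.3 against 198 ± 7.50 CPM). At an unadjusted p under 0.05 there was 1, Foxo1, a factor of T cell quiescence and homing, named after its values were seen, at 109, 113 and 104 against 156, 149 and 133 CPM (log2 difference -0.43, SE 0.14, adjusted p = 0.754).

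Counts of 7 genes, Gpi1, Pfkp, Gapdh, Pgk1, Pgam1, Eno1 and Pkm, were fractional in all 6 libraries. Those of 7 more, Hk1, Pfkfb2, Tpi1, Ldhb, Pdha1, Pdhb and Hif1a, were fractional in 1 to 5 libraries. The other 20 genes, Pfkfb4 and Pfkfb3 among them, had counts within 1e-06 of a whole number throughout. Estimated counts become fractional where reads are divided among genes, so the levels of these 14 are less certain.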

How the data were processed

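RNA of 6 libraries was sequenced in paired ends with a stranded mRNA kit, per the labels' protocols. The authors deposited a table of RSEM estimated counts per gene, with STAR, Picard and RSEM and the build mm10 named in the submitters' processing notes; versions and settings are not stated. These were rounded to whole counts. Genes kept by edgeR's filterByExpr (12760) were scaled by TMM and compared with edgeR 4.0.16 (robust quasi-likelihood test, group as the only term, Benjamini-Hochberg adjustment over all genes, threshold 0.05) in R 4.3.3; limma-voom (limma 3.58.1) and DESeq2 1.42.0 were alternatives. The SE is the log2 difference over the square root of F. Totals were 40480463 to 53145848 counts. For abundant genes counting error is small beside library spread (common dispersion 0.0994). It weighs more for genes of few counts, such as Pfkfb1 (23 to 33 counts a library) and Aldoc (14 to 65). On simulated data (12463 genes) edgeR recovered 42% of 2-fold and 98% of 4-fold changes, with 10 of 150 calls false. For DESeq2 these were 67% and 99%, with 52 of 218 calls false. Simulated counts were drawn with the dispersions that edgeR estimated, so the rates may favour edgeR. The changes were planted only in genes of at least 5 CPM, and no simulated library stood apart as CD4-negative replicate 3 did. These rates may therefore differ in the real libraries and for genes of lower counts.

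Isoform shares used the union of exons (GENCODE M21, the same assembly as mm10) and, as an alternative, principal transcripts. The members, gene lists and tests were chosen with earlier results of these data known. All 34 genes are named; of each other list, the genes past the test or else the 2 most abundant, and Cd4. Replicate numbers were not used as pairs. Some listed genes are not reported here.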

Additional observations from a re-analysis of the deposited data

How the results depend on the processing

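At an adjusted p under 0.05, 0 of these genes passed edgeR's test, limma-voom or DESeq2 without a filter under the settings tried, and DESeq2 on the filtered genes called 1, Pfkfb4 (0.88, adjusted p = 0.0234); an unadjusted p under 0.05 also gave 1. The count over all genes, 27, was 164 with DESeq2 without a filter, 189 with DESeq2 on the filtered genes, 67 without a filter on low counts, 11 with the naming scheme as a batch term, 9 in replicates 1 and 2 alone, 66 with both libraries low in mitochondrial counts left out, 2 at an adjusted p under 0.01 and 567 unadjusted. It was 0 to 44 with a library left out: 44 without CD4-negative replicate 3 and 0 without each of the others. The cause was not tested. The median of the 32 genes was -0.053 to 0.18 with a library left out and 0.23 in replicates 1 and 2 alone, and 14 to 26 of them lay above 0.

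Deviations from the group means correlated at -0.0798, 0.343 and 0.0362 between same-numbered libraries of the 2 groups. Not every library correlated best with its own number, and the numbers were not taken as pairs. With 3 libraries a group these correlations cannot decide whether the libraries are paired. The names of same-numbered libraries match in part, and whether these were prepared together is not stated. The fit with the replicate number as a block called 0 genes of all and 0 of the 32, with Pfkfb4 at 0.89 (edgeR's adjusted p = 0.732); Tpi1 turned to 0.0027 and Gpi1 to 0.0014. With the scheme term Tpi1 was 0.031 and Gpi1 0.017.

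Of 541 values of single genes under alternatives, 478 kept direction and side, 1 became a call and 62 changed sign; 10 genes never did. The choice of replicates 1 and 2 alone, of leaving out both low-mitochondrial libraries and of DESeq2 on filtered genes was made after seeing the data. In replicates 1 and 2 alone Dlat was -0.13, Hk2 0.081, Pgam1 -0.036, Pfkl 0.27, Pdhb 0.13, Tpi1 0.41, Taldo1 0.24, Pfkfb2 -0.32, Pfkfb3 -0.046, Aldoa 0.18, Pdk3 0.10, Gpi1 0.23, Eno3 0.23 and Eno1 0.23, and the Pdk3 share differed by 2.82 percentage points. Without both low-mitochondrial libraries Dlat was -0.074, Aldoc -0.064, Pfkl 0.0011, Tkt -0.022, Tpi1 0.083, Ldhb 0.17, Aldoa 0.087, G6pdx 0.050, Pdk3 0.087 and Gpi1 0.068.

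With a library left out the lowest and highest log2 differences were -0.13 and 0.16 for Dlat, -0.26 and 0.20 for Pfkl, -0.30 and 0.036 for Pdhb, -0.19 and 0.18 for Tkt, -0.27 and 0.32 for Tpi1, -0.36 and 0.17 for Taldo1, -0.020 and 0.62 for Pfkfb2, -0.014 and 0.37 for Pfkfb3, -0.054 and 0.31 for Pgd, -0.82 and 0.093 for Ldhb, and -0.16 and 0.19 for Aldoa. They were -0.031 and 0.37 for Pkm, -0.23 and 0.092 for Pdk3, -0.15 and 0.21 for Gpi1, -0.34 and 0.16 for Eno3, -0.087 and 0.31 for Pgk1, -0.080 and 0.25 for Ldha, and -0.41 and 0.14 for Eno1. An arm left with fewer libraries was fitted with the spread shared across groups.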
